A study of Mus musculus with 21 samples.

Results

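The recovery of untrained quadriceps muscle over the first 6 h after exhaustive exercise was analysed by comparing the 3 untrained libraries taken at 6 h with the 3 untrained libraries taken at 0 h, 6 of the 21 libraries of the series. Members were chosen by their labels alone. Wildtype adult male C57/Bl6 mice without wheel training ran to exhaustion on a treadmill in 1 bout, and the quadriceps was collected at 0 h or 6 h. Sedentary mice, which did not exercise, and mice with 12 weeks of voluntary wheel running that performed the same kind of bout serve here as references. Each library comes from whole quadriceps, a mixed tissue, so that fewer cells of a type and less RNA per cell cannot be told apart. RNA was sequenced in bulk, and the values are TPM, a length-normalized transcript abundance in which each library is scaled to a common total.

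Muscle contraction raises calcium, stretches the sarcomere and activates stress kinases, and within minutes it switches on immediate early genes, whose transcripts are short-lived and whose proteins are often transcription factors. A later wave follows in the hours of recovery, with genes for metabolic control such as the coactivator PGC-1α, for chaperones, and for proteins of the Z-disc and cytoskeleton that respond to mechanical load. The libraries at 0 h and 6 h bracket the change from the early to the later transcript set.

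The values of untrained 0 h replicate 1 were identical to those deposited for trained 0 h replicate 1 in all 53738 gene symbols, 25037 of them above 0. The label of this library is thus uncertain. It was kept in the untrained 0 h group, dropped from the trained 0 h group, and each main result is also given without it. TPM values keep no sequencing depth, so that the depth is unknown and no counting error can be given. Summed TPM ranged from 997304 to 997921 over the libraries. Transcripts of the mitochondrial genome held 37.7% to 40.6% of the TPM at 0 h and 40.6% to 43.7% at 6 h. Of the muscle markers, 7 of 7 were measured, with a summed level of 63290 to 70091 TPM at 0 h and 58749 to 61544 TPM at 6 h.

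Of the 53738 symbols, 11845 reached 1 TPM on average in the 6 libraries and were tested with limma on log2(TPM + 0.5). A call required a Benjamini-Hochberg adjusted p under 0.05 together with a change of 1.5-fold or more, up or down. Between 0 h and 6 h, 585 genes were called, 4.94% of those tested, with 251 higher at 6 h (2.12%) and 334 lower (2.82%). For 565 of the 585, the 0 h and 6 h libraries did not overlap. The call itself favours such genes, and the share over all tested genes is not given, so this count is a description. The median log2 fold change was 0.90 among the rises and -0.87 among the falls, and 32 rises and 36 falls reached a log2 fold change of 2. Without the shared library, 519 genes were called, 219 higher and 300 lower. The balance of rises and falls depended on scaling, since the median over all tested genes was -0.09. With median-of-ratios scaling 329 genes were higher and 261 lower, with TPM rescaled without mitochondrial and top genes 358 and 274, and with quantile normalization 341 and 304. It also depended on single libraries. Without untrained 6 h replicate 1, 325 genes were higher and 259 lower, and the balance moved the other way without untrained 6 h replicate 2 (203 and 391), untrained 6 h replicate 3 (225 and 370) or untrained 0 h replicate 3 (194 and 319).

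**Figure D1:**
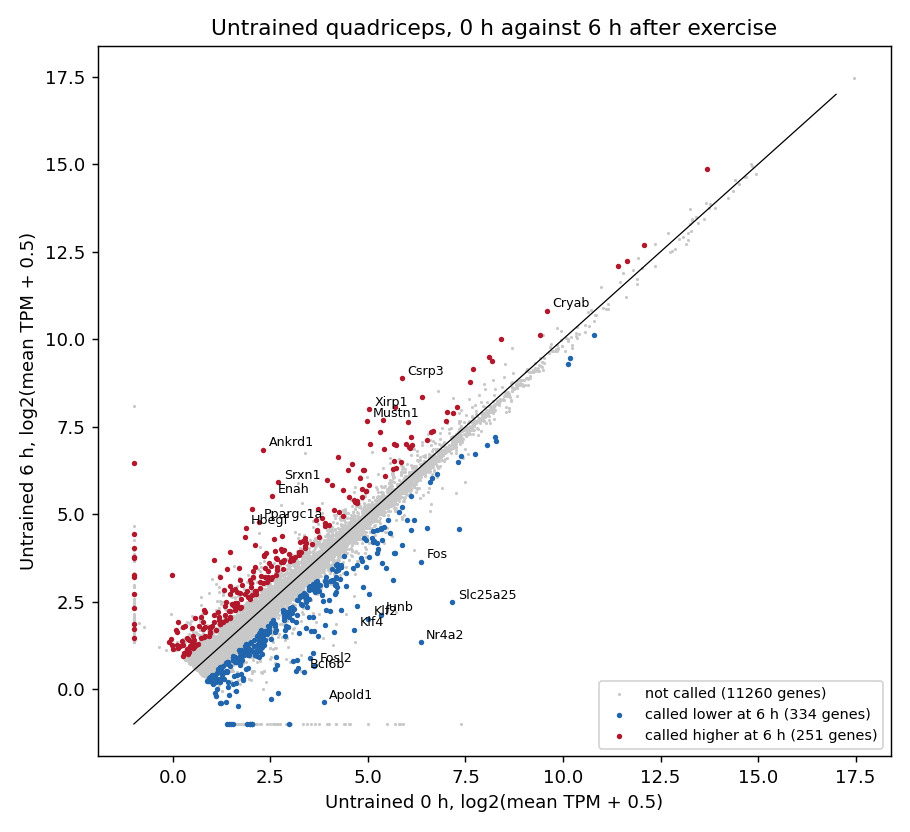
Mean level of each tested gene at 0 h (x axis) and 6 h (y axis) in untrained muscle, both as log2(mean TPM + 0.5), with the 3 libraries of each time averaged. Red points are the 251 genes called higher at 6 h, blue points the 334 called lower and grey points the rest. Ankrd1 lies far above the line of equality, and Nr4a2, Slc25a25 and Apold1 lie far below it.

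The 12 largest falls included immediate early genes of the NR4A and AP-1 families. Nr4a2, an orphan nuclear receptor at chr2:56996842-57014331 (GRCm39), held 70.6, 88.5 and 84.1 TPM in the 3 libraries at 0 h and 0.354, 0.746 and 4.95 TPM at 6 h. The groups were far apart, although untrained 6 h replicate 3 stayed above the other 6 h libraries. Its log2 fold change was -5.50 ± 0.74 (SE; limma, adjusted p = 0.000214), and -5.59 without the shared library. Slc25a25, a calcium-regulated ATP-magnesium carrier of the mitochondrial inner membrane at chr2:32303547-32341482, held 134, 150.1 and 144 TPM at 0 h. At 6 h it held 2.05, 5.38 and 7.77 TPM, 28.2-fold lower on the ratio of means (log2 fold change -4.84 ± 0.52, limma adjusted p = 3.11e-05). Apold1, a protein of endothelial cells, fell from 15.7, 12.03 and 14.7 TPM to 0.21, 0.292 and 0.293 TPM (log2 fold change -4.25 ± 0.32, limma adjusted p = 1.47e-06). Sedentary muscle held means of 0.737 TPM for Nr4a2, 3.37 TPM for Slc25a25 and 0.436 TPM for Apold1, and for 12 of the 12 largest falls every 0 h library lay above every sedentary library. The 12 were picked for 0 h values above those at 6 h, and the share over all tested genes is not given, so this is a description.

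**Figure D2:**
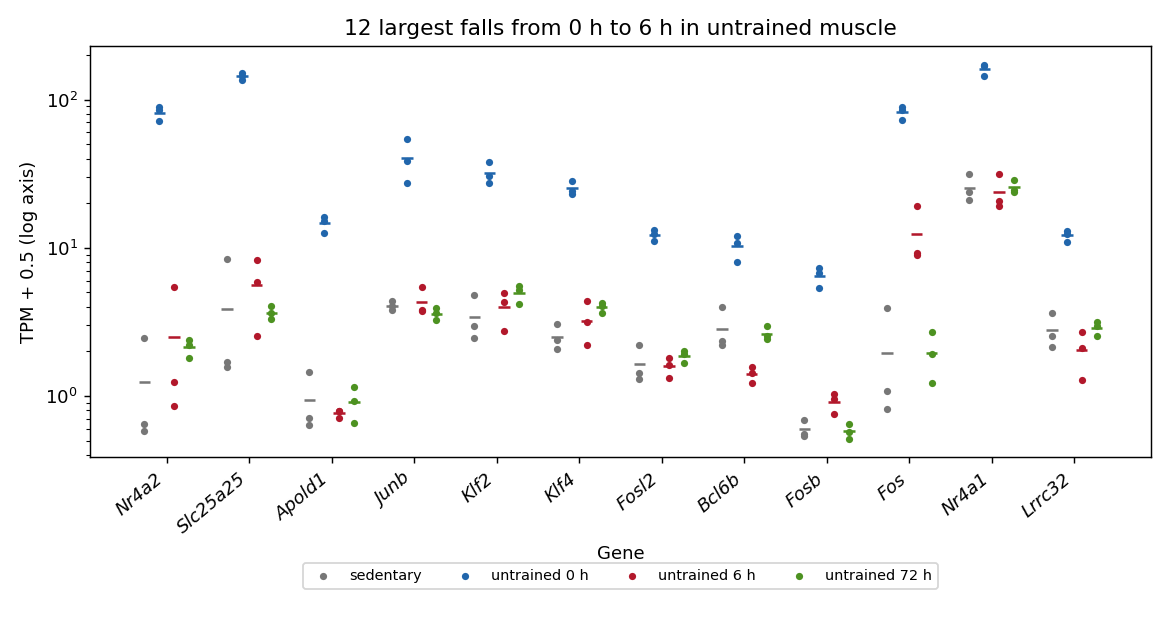
TPM + 0.5 on a log axis for the 12 genes with the largest fall, with 1 point for each library and a bar at the mean, in sedentary muscle and in untrained muscle at the time points 0 h, 6 h, and after 72 h. The 0 h points of each gene stand above its 6 h points, as the choice of the 12 required. For Nr4a2 the 6 h mean of 2.02 TPM is near the 72 h mean of 1.64 TPM.

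The AP-1 factors, dimers of FOS and JUN family proteins, were lower at 6 h in each member tested of the FOS and JUN genes. Fos held 88.9, 72.5 and 84.1 TPM at 0 h and 8.51, 18.5 and 8.77 TPM at 6 h. Its 6 h libraries lay below the 0 h libraries and above the sedentary values of 0.32, 0.588 and 3.44 TPM (log2 fold change -2.81 ± 0.49, limma adjusted p = 0.0015). Fosb fell from 5.99 ± 1.001 to 0.415 ± 0.145 TPM (mean ± SD, n = 3), Fosl2 from 11.7 ± 1.03 to 1.09 ± 0.244 TPM, and Junb from 39.6 ± 13.7 to 3.82 ± 0.946 TPM. Jun and Jund fell less, from 40.4 to 18.5 TPM and from 14.4 to 8.003 TPM, with log2 fold changes of -1.15 and -0.82. Atf3, a stress-induced partner of AP-1, went the other way in its values, 36.3, 32.4 and 33.2 TPM at 0 h and 109, 149 and 68.9 TPM at 6 h. The groups of Atf3 did not overlap, but it was not called (log2 fold change 1.60 ± 0.53, limma adjusted p = 0.062).

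The NR4A receptors differed among themselves. Nr4a1 fell from 169, 143 and 171 TPM to 18.5, 20.02 and 31.2 TPM (log2 fold change -2.80 ± 0.21, limma adjusted p = 1.47e-06), while Nr4a3 was not called, with 4.41, 5.27 and 5.18 TPM at 0 h and 6.03, 12.8 and 6.65 TPM at 6 h (limma adjusted p = 0.101). Among the zinc-finger factors of the EGR family, Egr1 fell from 49.1 ± 12.6 to 8.12 ± 4.04 TPM, Egr2 from 1.82 ± 0.209 to 0.253 ± 0.0755 TPM and Egr3 from 2.67 ± 0.537 to 0.207 ± 0.0812 TPM. Zfp36, which speeds the decay of AU-rich transcripts, fell from 15.8 ± 3.66 to 4.15 ± 0.832 TPM. Of 29 listed early transcription factors and regulators, 26 passed the filter. In this list 16 were called lower and 0 higher, beside 2.82% of all tested genes called lower, and the median log2 fold change was -1.03 against -0.09 over all tested genes. Members such as Egr2 passed the filter through their 0 h values alone and had to differ, so this count is a description. Without the shared library 15 were called lower, and with each of the 3 other scalings 15 were lower and 1 was higher.

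Of 12 Krüppel-like factors tested, 6 fell and 1 rose, beside 2.82% and 2.12% of all tested genes. Klf2, a flow-responsive factor of endothelial cells, held 37.3, 26.99 and 30.1 TPM at 0 h and 2.23, 4.49 and 3.83 TPM at 6 h, and Klf4 held 27.8, 23.6 and 22.6 TPM and 1.7, 3.85 and 2.64 TPM. Both fell with a log2 fold change near -3 (-3.03 ± 0.23 and -3.01 ± 0.21). Klf10 fell from 18.1 to 7.004 TPM, a call that was lost without the shared library (limma adjusted p = 0.0652) and without untrained 6 h replicate 3 (limma adjusted p = 0.0588). Klf5 rose from 0.686, 0.486 and 0.587 TPM to 2.14, 4.84 and 2.9 TPM (log2 fold change 1.75 ± 0.20, limma adjusted p = 5.48e-05). Klf5 passed the filter through its 6 h values alone, so the count of rises in this list is a description. Klf9 and Klf15, which respond to glucocorticoids, were not called, with means of 24.6 and 26.03 TPM and of 8.48 and 7.05 TPM.

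Of 7 tested MAP kinase phosphatases, 2 fell and 1 rose, with a median log2 fold change of -0.03, and of 20 tested genes of CREB and SIK signalling 3 fell and 1 rose, with a median of -0.12. Over all tested genes 2.82% fell and 2.12% rose, with a median of -0.09, and most members of both lists were not called. Without the shared library 0 phosphatases were called higher. With median-of-ratios scaling or quantile normalization 1 phosphatase and 2 genes of CREB and SIK signalling were called lower. Creb5, the gene called higher in the CREB list, passed the filter through its 6 h values alone, so that count is a description. Sik1, a salt-inducible kinase that restrains CREB signalling, fell from 19.3, 16.2 and 15.9 TPM to 2.11, 3.7 and 2.04 TPM (log2 fold change -2.53 ± 0.21, limma adjusted p = 3.32e-06). Dusp1, a phosphatase that switches off MAP kinases, fell from 116, 75.7 and 82.9 TPM to 16.2, 30.5 and 23.9 TPM (log2 fold change -1.96 ± 0.24), while Dusp10 rose from 9.9 to 18.4 TPM. The call of Dusp10 was lost without the shared library (limma adjusted p = 0.0928) and without untrained 6 h replicate 2 (limma adjusted p = 0.0687). Errfi1, an inhibitor of EGF receptor signalling, fell from 28.99 ± 3.47 to 7.003 ± 1.28 TPM, and Btg2, an antiproliferative regulator of mRNA decay, from 43.7 ± 12.5 to 10.6 ± 4.1 TPM. Irs2, an insulin receptor substrate, fell from 14.9, 15.00 and 12.96 TPM to 2.33, 3.53 and 3.25 TPM (log2 fold change -2.08 ± 0.19, limma adjusted p = 6.7e-06). Ddit4, an inhibitor of mTORC1, fell from 42.1, 31.7 and 22.4 TPM to 7.48, 6.95 and 3.77 TPM (log2 fold change -2.32 ± 0.31), and Pim1, a serine kinase, from 50.9 to 14.2 TPM.

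Promoters were searched on both strands for the letters of the cyclic AMP response element (CRE, TGACGTCA), the site at which CREB binds. The window ran from 250 bases before to 50 bases after the start site of the canonical transcript (GRCm39, GENCODE annotation). Of 9675 promoters of tested protein-coding genes, 3.37% held the letters. Among genes called lower they were in 24 of 261 promoters (9.2%), and among genes called higher in 5 of 196 (2.55%). Windows of 26 bases around the sites of 4 feedback genes that fell and 3 genes that rose are shown on the gene's strand, with the element in capitals, because both groups carry the same 8 letters. A match is a description of the sequence and not a measured binding site.
Sik1, chr17:32075001-32075026, minus strand, -199 bases from the start site: ccgggccccTGACGTCAccgcccgcg
Dusp1, chr17:26727573-26727598, minus strand, -96 bases from the start site: tagggcgggTGACGTCAccgcccggt
Errfi1, chr4:150939467-150939492, plus strand, -46 bases from the start site: tgcgggcgtTGACGTCAcgttgtcgc
Btg2, chr1:134007043-134007068, minus strand, -201 bases from the start site: tcccaataaTGACGTCAgtgagcgat
Ppargc1a, chr5:51711331-51711356, minus strand, -83 bases from the start site: gccttggagTGACGTCAggagtttgt
Rcan1, chr16:92197125-92197150, minus strand, -176 bases from the start site: ctaaggtgtTGACGTCAcctctttcc
Lmcd1, chr6:112250580-112250605, plus strand, -130 bases from the start site: cggctaagcTGACGTCAgggtagagt

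The 12 largest rises included genes of the sarcomere, the Z-disc and the actin cytoskeleton. Ankrd1, a muscle ankyrin repeat protein of the I-band at chr19:36089352-36097506, held 4.18, 3.87 and 5.43 TPM at 0 h and 96.4, 175 and 68.8 TPM at 6 h. Every 6 h library lay over 10 times above every 0 h library, and the 6 h libraries differed among themselves, replicate 2 being highest. The mean rose 25.3-fold (log2 fold change 4.42 ± 0.51, limma adjusted p = 6.3e-05; 4.38 without the shared library). Csrp3, the muscle LIM protein of the Z-disc at chr7:48480142-48497901, held 35.1, 50.1 and 88.1 TPM at 0 h and 538, 436 and 434 TPM at 6 h. Its 0 h libraries were spread and its 6 h libraries were close (log2 fold change 3.11 ± 0.51, limma adjusted p = 0.000939). Xirp1, which binds actin at sites of myofibril damage, rose from 30.8, 32.6 and 32.9 TPM to 209, 330.0 and 223 TPM (log2 fold change 2.93 ± 0.38, limma adjusted p = 0.000145). Flnc, the muscle filamin that crosslinks actin at the Z-disc, rose from 42.6, 55.8 and 56.1 TPM to 232, 302 and 262 TPM (log2 fold change 2.36 ± 0.18, limma adjusted p = 1.64e-06).

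Enah, an actin filament elongation factor at chr1:181723949-181847856, held 4.78, 5.16 and 6.05 TPM at 0 h and 36.8, 55.5 and 42.4 TPM at 6 h (log2 fold change 2.95 ± 0.26, limma adjusted p = 5.03e-06). Its groups were 8.42-fold apart in their means. Smaller rises were found for Ankrd2, a second muscle ankyrin repeat protein, from 65.2 to 199 TPM, for Lmod2, an actin nucleator of the thin filament, from 29.2 to 75.5 TPM, and for Nrap from 154 to 267 TPM. Structural proteins of the same region were not called, among them desmin (Des, 805 and 876 TPM), telethonin (Tcap, 1365 and 1127 TPM) and Ldb3 (663 and 618 TPM). Of 29 listed genes of mechanosensing and sarcomere repair, 27 were tested, 9 were called higher and 2 lower (Amotl2 and Smtnl2), beside 2.12% and 2.82% of all tested genes. Without the shared library, and with each of the 3 other scalings, 10 were called higher and 1 lower. This list, like the other lists, was written with earlier results of these data known, so its counts are a description. The median of the list was 0.04 on the log2 scale and changed sign without the shared library (-0.04).

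**Figure D3:**
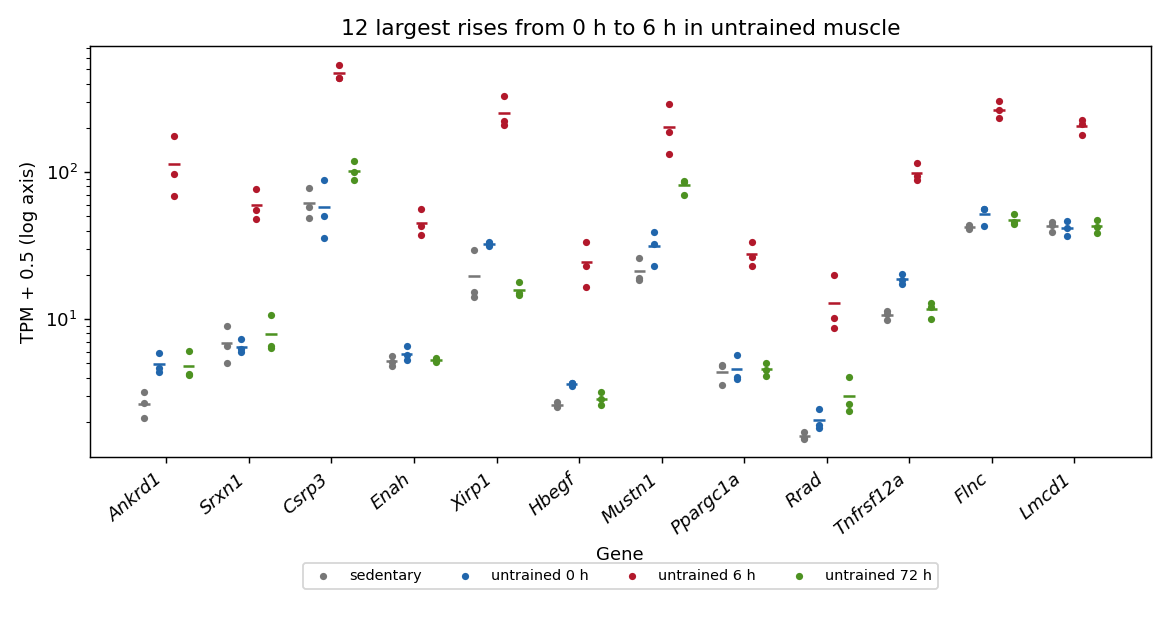
TPM + 0.5 on a log axis for the 12 genes with the largest rise, with 1 point for each library and a bar at the mean, in sedentary muscle and in untrained muscle at the time points 0 h, 6 h, and after 72 h. For each of the 12 genes the 6 h points stand above all 0 h points, as the choice of the 12 required, and above all sedentary and 72 h points. The 12 were picked for high 6 h values, and the share over all tested genes is not given, so this is a description. Untrained 6 h replicate 2 is the highest 6 h library for 10 of the 12 genes.

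The 12 also included Srxn1, the second largest rise, and genes of signalling. Srxn1, the sulfiredoxin that repairs oxidized peroxiredoxins at chr2:151947436-151957687, held 6.79, 5.79 and 5.44 TPM at 0 h and 47.2, 76.4 and 54.8 TPM at 6 h (log2 fold change 3.18 ± 0.28, limma adjusted p = 5.03e-06). Hbegf, a heparin-binding ligand of the EGF receptor, rose from 3.04, 3.17 and 3.2 TPM to 22.6, 33.2 and 15.9 TPM (log2 fold change 2.68 ± 0.21, limma adjusted p = 1.72e-06). Tnfrsf12a, the receptor of the cytokine TWEAK, rose from 19.9, 16.8 and 17.9 TPM to 88.3, 115 and 93.3 TPM (log2 fold change 2.40 ± 0.18). In all 3 genes the groups were far apart. Mustn1, a small nuclear protein of muscle and skeleton, rose from 31.8, 22.3 and 38.9 TPM to 186, 289 and 132 TPM, and Lmcd1, a LIM protein that acts on calcineurin signalling, from 40.9, 36.2 and 45.9 TPM to 226, 213 and 179.7 TPM. Rrad, a small GTPase that inhibits calcium channels, rose from 1.56 ± 0.339 to 12.4 ± 6.07 TPM, and Rcan1, a feedback inhibitor of calcineurin, from 41.1, 28.03 and 29.01 TPM to 118, 133 and 136 TPM (log2 fold change 1.98 ± 0.22, limma adjusted p = 4.76e-05).

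The AP-1 letters TGANTCA were searched in the same windows. They were in 5.14% of the 9675 promoters, in 24 of 196 promoters of genes called higher (12.2%) and in 19 of 261 of genes called lower (7.28%). Windows of 25 bases from 3 genes that rose and 1 that fell, Thbs1, are shown, with the 7 letters in capitals.
Srxn1, chr2:151947333-151947357, plus strand, -102 bases from the start site: cggagggccTGAGTCAccacgctgt
Srxn1, chr2:151947390-151947414, plus strand, -45 bases from the start site: aattcacccTGAGTCAgcggccggg
Klhl40, chr9:121606620-121606644, plus strand, -126 bases from the start site: ccccatagcTGACTCAaggctgctc
Rcan1, chr16:92197061-92197085, minus strand, -111 bases from the start site: tgcgggaccTGACTCAggaatttgc
Thbs1, chr2:117941824-117941848, plus strand, -141 bases from the start site: cacccttagTGAGTCAgacggaagg
Srxn1 and Thbs1 each carry the letters at 2 places, and the site of Thbs1 at -60 bases is not shown. The antioxidant response element, which can share bases with the AP-1 letters, was in 2.7% of all promoters, 4.59% of those called higher and 3.45% of those called lower. The other motifs searched were M-CAT (CATTCC; 13% of all promoters, 14.8% of those called higher and 13.8% of those called lower), the heat shock element (0.475%, 1.02% and 0%) and the CArG box (1.4%, 2.04% and 2.68%).

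Small heat shock proteins, which hold unfolded proteins and protect the Z-disc, rose in 4 of 7 members tested, beside 2.12% of all tested genes. Cryab, the αB-crystallin at chr9:50651859-50668567, held 827, 722 and 763 TPM at 0 h and 1706, 1982 and 1708 TPM at 6 h, with no overlap (log2 fold change 1.22 ± 0.19, limma adjusted p = 0.000658). Hspb7 rose from 74.9, 71.8 and 104 TPM to 358, 327 and 285 TPM (log2 fold change 1.96 ± 0.25), Hspb1 from 272 ± 27.4 to 722 ± 104 TPM, and Hspb8, the partner of the cochaperone BAG3, from 197 ± 7.57 to 437 ± 89.1 TPM. Hspb6 reached an adjusted p of 0.0392 in limma but not the fold threshold (361 and 479 TPM), and Hspb2 and Hspb3 were not called. The median log2 fold change of the 7 was 1.13, and without the shared library 4 were called higher as well.

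Of 36 tested members of the HSP70 and HSP90 system, 3 rose and 1 fell, beside 2.12% and 2.82% of all tested genes, so that the falls were at the background share. The cochaperones Dnaja4, Bag3 and Dnajb4 rose, from 27.04 to 64.6 TPM, from 50.3 to 91.7 TPM and from 30.2 to 50.4 TPM. Without untrained 6 h replicate 2, Dnajb4 was under the fold threshold (0.55). Dnajb1, the main HSP40 of the heat shock response, fell from 50.5, 63.5 and 60.4 TPM to 14.3, 20.2 and 16.02 TPM (log2 fold change -1.77 ± 0.21, limma adjusted p = 8.45e-05), still above the sedentary mean of 0.945 TPM. The inducible HSP70 genes were high at both times. Hspa1b held 63.3, 121 and 120.5 TPM at 0 h and 102, 181 and 124 TPM at 6 h, with overlapping groups and no call (limma adjusted p = 0.525), and its sedentary mean was 0.589 TPM. Hspa1a held 46.03, 85.4 and 84.99 TPM and 89.03, 151 and 108 TPM. Hspa1a and Hspa1b are near-identical copies, so how their reads were divided is uncertain. Hspa8 and Hsp90aa1 were not called, with means of 712 and 1111 TPM and of 140.0 and 148 TPM.

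Among metabolic regulators, Ppargc1a, which encodes PGC-1α, the coactivator of mitochondrial biogenesis, at chr5:51611592-51725068, held 3.55, 5.25 and 3.44 TPM at 0 h and 22.3, 33.1 and 25.9 TPM at 6 h. No 6 h library came near a 0 h library (log2 fold change 2.60 ± 0.19, limma adjusted p = 1.43e-06; 2.52 without the shared library). Esrrg, an estrogen-related receptor and partner of PGC-1α, rose from 2.09, 2.46 and 2.26 TPM to 5.01, 4.07 and 3.6 TPM (log2 fold change 0.76 ± 0.12, limma adjusted p = 0.000649). The paralog Ppargc1b (1.77 and 1.2 TPM), Esrra (36.6 and 39.1 TPM) and Tfam (15.5 and 13.7 TPM) were not called, and 2 of 15 tested members of the PGC-1 and ERR list rose and 0 fell, beside 2.12% and 2.82% of all tested genes.

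In glucose metabolism, Hk2, the hexokinase that traps glucose in muscle, rose from 56.9, 58.1 and 34.7 TPM to 119, 157 and 109.7 TPM (log2 fold change 1.38 ± 0.24, limma adjusted p = 0.00138). Tbc1d1, a Rab GTPase-activating protein of GLUT4 traffic, rose from 7.9, 5.52 and 6.1 TPM to 23.7, 16.3 and 20.9 TPM (log2 fold change 1.57 ± 0.22). The transporter GLUT4 itself (Slc2a4) held 213, 212 and 206 TPM and 166, 179.8 and 166 TPM, lower at 6 h by less than the fold threshold (log2 fold change -0.30 ± 0.07, limma adjusted p = 0.00744). Pfkfb4, a regulator of glycolytic flux, and the monocarboxylate transporter Slc16a1 rose, from 13.6 to 28.9 TPM and from 6.52 to 10.3 TPM. Without untrained 6 h replicate 3, Slc16a1 was under the fold threshold (0.53). Pdk4, the kinase that switches off pyruvate dehydrogenase, held 117, 71.3 and 142 TPM and 352, 439.7 and 299 TPM. Its groups did not overlap, yet it was not called (log2 fold change 1.76 ± 0.61, limma adjusted p = 0.0715). Of 32 tested PPAR targets and genes of fatty acid oxidation, 0 were called, beside 4.94% of all tested genes, a share at which a list of this size would hold few calls. The AMPK γ subunits moved apart, Prkag3 falling from 54.9 to 32.8 TPM and Prkag2 rising from 4.83 to 7.85 TPM, the latter just under the fold threshold without untrained 6 h replicate 2 (0.58).

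Clock genes of the negative limb were measured in 10 members, of which 3 fell and 1 rose, beside 2.82% and 2.12% of all tested genes. Ciart, a repressor of CLOCK and BMAL1, fell from 9.55, 9.34 and 13.8 TPM to 1.05, 1.78 and 1.21 TPM (log2 fold change -2.62 ± 0.28, limma adjusted p = 3.11e-05). Per1 fell from 13.8, 18.4 and 20.2 TPM to 6.71, 7.37 and 4.94 TPM, and Bhlhe40 from 31.2, 26.4 and 39.4 TPM to 13.2, 12.8 and 13.9 TPM. Cry2 rose from 6.62 to 11.8 TPM. Per2, Per3, Cry1, Nr1d1, Nr1d2 and Bhlhe41 were not called. The hours of recovery and the time of day cannot be told apart here. The E-box letters CACGTG, which CLOCK and BMAL1 bind, stand near the start sites of Ciart and Per1, shown in 26 bases with the 6 letters in capitals.
Ciart, chr3:95789641-95789666, minus strand, -100 bases from the start site: catctagagtCACGTGttgccggtaa
Ciart, chr3:95789583-95789608, minus strand, -42 bases from the start site: cagggggaggCACGTGcagaaccgca
Per1, chr11:68989236-68989261, plus strand, -22 bases from the start site: cccttaacgaCACGTGggccctcaat
Ciart also holds the letters at -28 bases, a site not shown. The E-box letters were in 10.6% of all promoters, 10.2% of those of genes called higher and 11.1% of those called lower.

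Among 22 tested NRF2 targets 3 rose, beside 2.12% of all tested genes, namely Srxn1, the thioredoxin reductase Txnrd1 (17.1 to 34.4 TPM) and the heme oxygenase Hmox1 (3.63 to 8.73 TPM), while Nfe2l2, which encodes NRF2, fell from 17.7, 16.8 and 18.6 TPM to 7.72, 11.3 and 10.5 TPM (log2 fold change -0.83 ± 0.14, limma adjusted p = 0.00108). Nqo1, Gclm and Gclc were not called. Of 19 tested ubiquitin ligases and FOXO-related genes, 3 rose and 2 fell, Ddit4 among the falls, beside 2.12% and 2.82% of all tested genes. With median-of-ratios scaling 5 were called higher and 1 lower. Klhl40, a kelch protein that stabilizes thin filament proteins, rose from 38.2, 38.3 and 40.3 TPM to 145, 206 and 136 TPM (log2 fold change 2.02 ± 0.18, limma adjusted p = 4.84e-06). Klhl41 and Fbxo40 rose less, from 144 to 236 TPM and from 61.9 to 129 TPM, and Klhl41 was under the fold threshold without untrained 6 h replicate 2 (0.54). The atrophy ligases Fbxo32 and Trim63 were not called, with 43.5, 26.5 and 32.2 TPM and 29.1, 51.1 and 41.3 TPM for Fbxo32 and 111, 65.1 and 75.1 TPM and 92.1, 181 and 106 TPM for Trim63. Gabarapl1, an ATG8 protein of the autophagosome, rose from 19.7, 14.2 and 15.1 TPM to 52.5, 62.6 and 53.2 TPM (log2 fold change 1.76 ± 0.17), 1 of 27 autophagy genes called higher, with 1 called lower, counts near the background shares. Depp1 was called lower, a call lost without the shared library (limma adjusted p = 0.0548).

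Of 18 p53, GADD45 and BTG genes, 3 rose and 4 fell, beside 2.12% and 2.82% of all tested genes. Plk3, called lower, held 2.72, 2.83 and 2.96 TPM at 0 h and 0.658, 1.41 and 0.469 TPM at 6 h. It passed the filter through its 0 h values alone, so the count of falls is a description. Gadd45a rose from 10.2 to 17.5 TPM and its paralog Gadd45g was called lower, from 81.8, 53.1 and 68.5 TPM to 24.1, 27.7 and 16.1 TPM, without the call when the shared library (limma adjusted p = 0.0582) or untrained 6 h replicate 3 (limma adjusted p = 0.0552) was left out. Cdkn1a, the cell cycle inhibitor p21, fell from 17.6 to 8.51 TPM. Of 17 glucocorticoid-responsive genes, 3 rose and 5 fell, beside the same shares, and 3 fell without the shared library, with median-of-ratios scaling and with rescaled TPM. Glul, glutamine synthetase, rose from 65.5 to 121 TPM, and Tsc22d3, the leucine zipper GILZ, fell from 108 to 70.7 TPM. Among 13 myogenic regulators, again beside 2.12% and 2.82% of all tested genes, Myf6 rose (43.02 to 67.7 TPM) and 4 fell, among them Myog (6.18, 2.84 and 4.12 and 1.04, 1.87 and 1.59 TPM) and the inhibitor Id1 (14.8 to 4.25 TPM). At the neuromuscular junction the receptor kinase Musk and its adaptor Dok7 rose, from 2.51, 3.56 and 2.28 TPM to 5.89, 7.2 and 11.6 TPM and from 3.5, 3.61 and 3.1 TPM to 8.08, 7.94 and 8.51 TPM, whereas Chrna1, Chrnb1 and Chrne, subunits of the acetylcholine receptor, were not called. Of 13 tested myokines and chemokines, 1 was called, the ligand Hbegf, near the 4.94% of all tested genes.

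**Figure D4:**
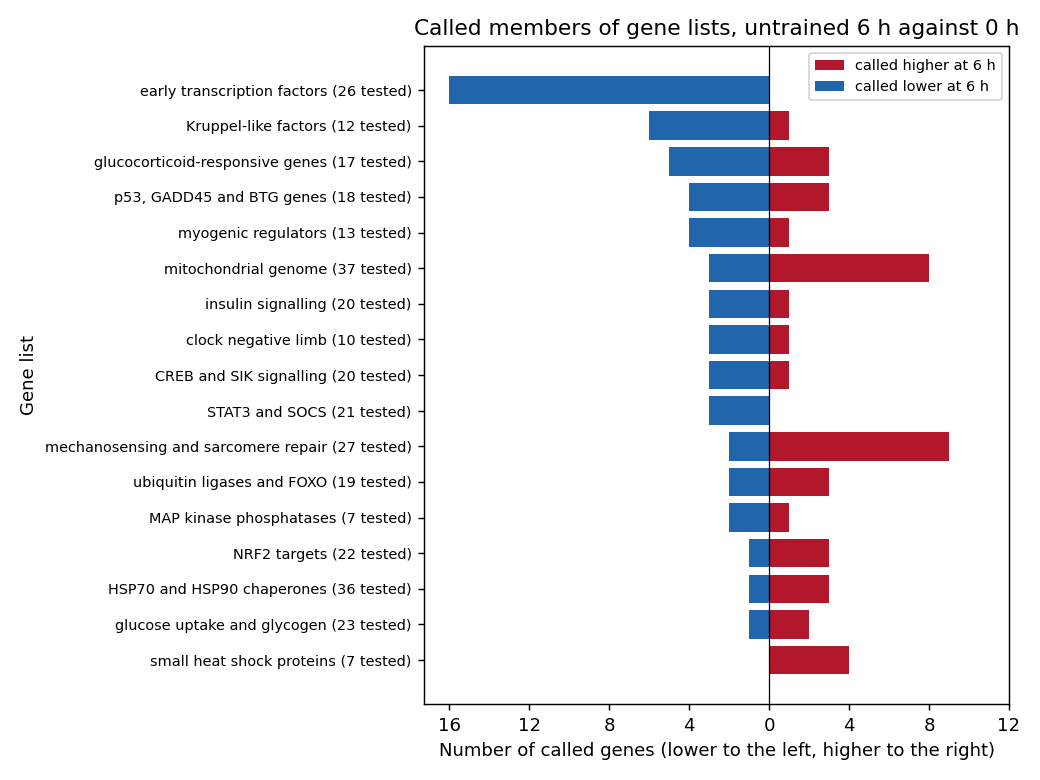
Number of members called in each pathway list with at least 3 calls, with genes lower at 6 h to the left and genes higher at 6 h to the right of 0, and the number tested in brackets. The early transcription factors have 16 falls and 0 rises, and the mechanosensing list has 9 rises and 2 falls.

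Lists of energy supply and protein synthesis are given beside the 4.94% of all tested genes that were called. Of 88 nuclear genes of oxidative phosphorylation 0 were called in limma, with a median log2 fold change of -0.18, or -0.08 with median-of-ratios scaling. Of 22 genes of the TCA cycle, 83 cytosolic ribosomal proteins and 78 mitochondrial ribosomal proteins 0 were called, and among 42 proteasome subunits Psmd11 rose from 34.9, 30.9 and 30.9 TPM to 54.9, 59.01 and 54.6 TPM (log2 fold change 0.79 ± 0.08, limma adjusted p = 3.09e-05). In the mitochondrial genome 8 of 37 genes were higher and 3 lower, beside 2.12% and 2.82% of all tested genes. The higher genes were tRNAs, such as mt-Th (523, 374 and 122 TPM at 0 h and 1052, 841 and 1175 TPM at 6 h; adjusted p = 0.112 without untrained 0 h replicate 3, 0.0691 and 0.0784 without untrained 6 h replicate 1 or 3, limma), and both ribosomal RNAs were lower (mt-Rnr1, 1167 to 703 TPM, and mt-Rnr2, 1123 to 624 TPM). The calls of mt-Ts2 and mt-Tg were lost without each of the same 3 libraries, so the count of higher genes rests in part on single libraries. The call of mt-Tf was kept, but its log2 fold change ranged from 3.15 to 6.30 over the settings run. In the list of the mitochondrial genome 1 gene was called lower without the shared library, so that not both ribosomal RNA calls held without it. With median-of-ratios scaling or quantile normalization 2 genes were called lower. Small and mitochondrial RNAs varied more among libraries, with a median SD of 1.64 on the log2 scale beside 0.152 for protein-coding genes.

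Markers of other cell types were followed in the same libraries. Of 8 tested macrophage markers 1 was called, beside 4.94% of all tested genes. This was Cd68, which rose from 1.74, 2.03 and 2.41 TPM to 4.36, 6.82 and 4.01 TPM (log2 fold change 1.09 ± 0.20, limma adjusted p = 0.00251). The other macrophage markers, such as Csf1r (3.2 and 4.59 TPM) and C1qa (8.2 and 8.61 TPM), were not called, and the summed level of the 9 markers was 55.9 to 61.6 TPM at 0 h and 39.7 to 83.9 TPM at 6 h. Neutrophil, T cell and B cell markers did not reach the filter, and Ly6g, a defining neutrophil marker, was at 0 in all 6 libraries. Summed B cell markers held 1.11 to 1.43 TPM at 0 h and 0.312 to 0.404 TPM at 6 h. T cell markers held 0.563 to 0.929 TPM and 0.423 to 0.52 TPM, and neutrophil markers 0.828 to 1.92 TPM and 0.487 to 1.42 TPM, the last with overlap. These low values were not tested. Endothelial markers were called in 0 of 7, with sums of 44.7 to 55.7 TPM at 0 h and 46.4 to 57.6 TPM at 6 h, beside the falls of Klf2, Klf4 and Apold1. Fibro-adipogenic markers summed to 214 to 253 TPM at 0 h and 142 to 384 TPM at 6 h, a wider range, and 0 of 6 were called. Adipocyte, red blood cell, satellite cell, Schwann cell, slow fibre and fast fibre markers had 0 calls. Their part in the changes above was not tested.

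The change from 0 h to 6 h was compared with that in trained muscle, which had 2 libraries at 0 h and 3 at 6 h, as the difference of the 2 log2 changes. This difference was called in 52 of 11845 genes, 0.439%, positive in 45. The filter used the untrained libraries alone, so genes high only in trained muscle did not enter. Klf5, called for the difference, passed the filter through its untrained 6 h values alone. The split by sign is thus a description, and it is not given for other scalings. In trained muscle Enah held 8.7 and 6.5 TPM at 0 h and 14.00, 5.08 and 5.73 TPM at 6 h, and its log2 change was 2.96 ± 0.39 larger in untrained muscle (limma adjusted p = 0.00438). Flnc, Lmcd1, Klhl40, Tnfrsf12a and Hbegf also rose more in untrained muscle. Flnc held 65.5 and 53.7 TPM and 122, 74.99 and 63.8 TPM in trained muscle (difference 1.87 ± 0.27, limma adjusted p = 0.0111), and Klhl40 38.9 and 34.6 TPM and 55.7, 35.3 and 31.2 TPM (difference 1.92 ± 0.27, limma adjusted p = 0.0065). In each of these genes trained 6 h replicate 1 was the highest trained library. Ankrd1 was not called for the difference (difference 3.42 ± 0.76, limma adjusted p = 0.0636). Ppargc1a changed by 2.60 in untrained and 2.93 in trained muscle on the log2 scale (difference -0.33 ± 0.29, limma adjusted p = 0.732), where it held 4.84 and 4.33 TPM at 0 h and 48.6, 29.1 and 39.2 TPM at 6 h.

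Chaperone genes were among the called differences. Hspa1b, not called in untrained muscle, held 95.1 and 31.4 TPM at 0 h and 7.92, 2.51 and 2.25 TPM at 6 h in trained muscle, and the difference was 4.18 ± 0.63 on the log2 scale (limma adjusted p = 0.0112; 0.0596 without trained 0 h replicate 2). Dnajb1 fell to 14.3, 20.2 and 16.02 TPM in untrained and to 1.38, 1.000 and 1.21 TPM in trained muscle (difference 2.99 ± 0.32, limma adjusted p = 0.00144). Among the early genes, Nr4a3 and Btg2 were called for the difference, 2.20 and 2.24 on the log2 scale. Fos was not (difference 3.36 ± 0.73, limma adjusted p = 0.057), although its trained 6 h libraries of 1.22, 0.938 and 0.968 TPM lay below the untrained 6 h libraries of 8.51, 18.5 and 8.77 TPM. In the opposite direction, G0s2, an inhibitor of triglyceride lipase, fell in untrained muscle from 21.1, 18.7 and 13.4 TPM to 7.37, 8.36 and 6.91 TPM while trained muscle held 9.17 and 13.9 TPM and 19.1, 19.5 and 21.1 TPM (difference -1.95 ± 0.39, limma adjusted p = 0.0345). This difference was lost without any of 8 single libraries, among them the shared library (0.0846) and trained 0 h replicate 2 (0.188). The number of genes called for the difference rested on single libraries. It was 28 without untrained 0 h replicate 2, 285 and 25 without untrained 6 h replicate 1 or 2, 15 without trained 0 h replicate 2, and 80, 11 and 15 without trained 6 h replicate 1, 2 or 3. Without the shared library it was 41.

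**Figure D5:**
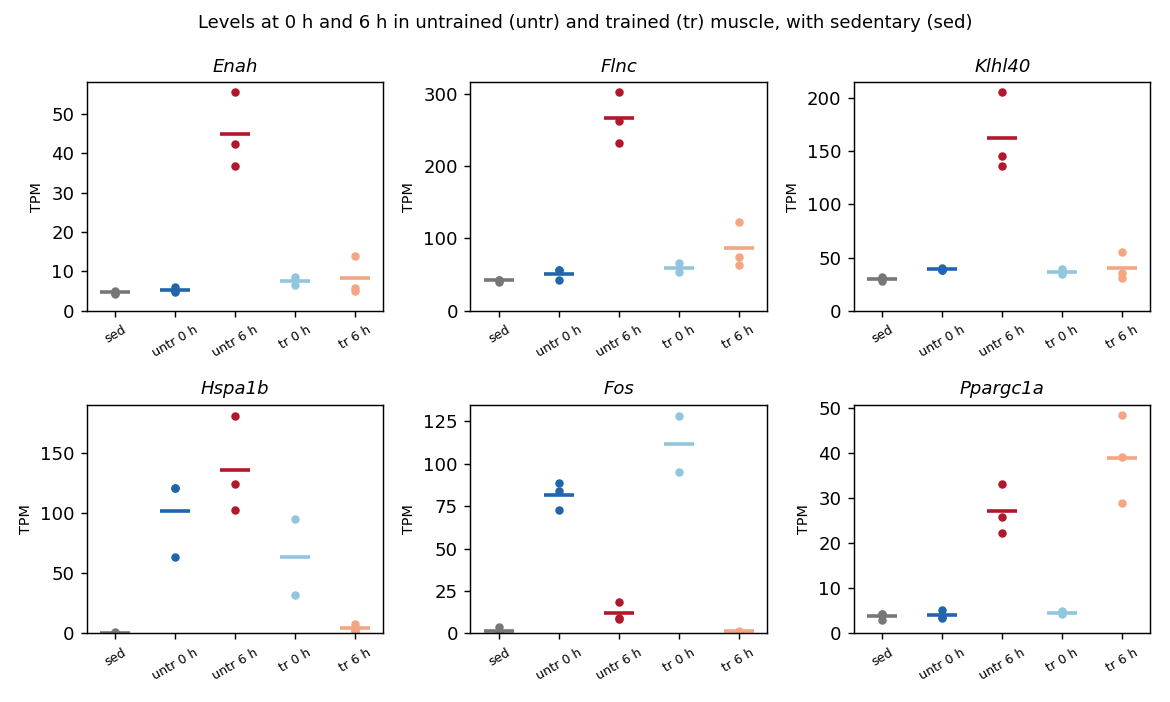
TPM on linear axes from 0 for 6 genes in sedentary muscle (sed) and at 0 h and 6 h in untrained (untr) and trained (tr) muscle, with 1 point for each library and a bar at the mean. Enah, Flnc and Klhl40 stand high in untrained 6 h muscle, Hspa1b is high at both untrained times, Fos is highest at 0 h, and Ppargc1a is high at 6 h in both training states.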

How the data were processed

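Quadriceps RNA of wildtype mice was measured by bulk RNA-seq with a TruSeq v2 kit and paired-end reads. The authors aligned reads to GRCm39 with STAR and quantified them with salmon 1.5.0, and TPM values for 53738 gene symbols were deposited. DESeq2 is also named in the submitters' processing notes. Because TPM is relative, a rise in abundant transcripts lowers all others, and depth is unknown, so precision rests on the spread between 3 mice a group. 0 columns were unassigned.

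TPM was transformed to log2(TPM + 0.5), and genes averaging 1 TPM or more in the 6 untrained 0 h and 6 h libraries entered a limma model (version 3.58.1, R 4.3.3) with a variance trend, 7 group means, 20 distinct libraries and 13 residual degrees of freedom. Fold changes on this scale understate changes of low genes. The identical column of trained 0 h was left out. P values were adjusted over all 11845 tested genes (Benjamini-Hochberg), and genes were called at 0.05 with a change of 1.5-fold or more. The procedure was tested on simulated data. Genes named are the top 12 nuclear protein-coding genes by size of rise and the top 12 by size of fall, taken from called genes of at least 5 TPM in the higher group and no overlap, up to 4 called members of each list by size of change, and other list members given by value. For the difference from trained muscle, up to 5 called nuclear protein-coding genes in each direction, of at least 5 TPM in the highest group, are named by size. Further called genes (such as Jun, Egr1, Ankrd2, Lmod2, Glul and Myf6) are list members given where their list is described. Some called genes are not reported here. The comparison and the lists were chosen with earlier results of these data known. Alternatives covered pseudocounts, filters, scalings, variance models, a replicate block, gene classes and each library left out. One alternative, the shared library kept in trained 0 h alone, was chosen after seeing the data. Promoter windows were read from the GRCm39 genome. Gene positions came from GENCODE. Figures were drawn with matplotlib 3.10.9.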

Additional observations from a re-analysis of the deposited data

Results flagged for a closer look

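The change from 0 h to 6 h differed between untrained and trained muscle in 52 genes by the limma contrast of the 2 changes. The values given here are the change in untrained muscle minus that in trained muscle, on the log2 scale, and each passed the threshold on its adjusted p. Among chaperones the difference was 4.18 for Hspa1b, 3.64 for Hspa1a, 2.99 for Dnajb1, 1.77 for Hspb1, 1.46 for Dnajb4, 1.45 for Cryab and 1.20 for Dnaja4. Among genes of the sarcomere, cytoskeleton and muscle signalling it was 2.96 for Enah, 2.16 for Lmcd1, 1.92 for Klhl40, 1.89 for Hbegf, 1.87 for Flnc and 1.49 for Tnfrsf12a. It was 3.98 for Otud1, a deubiquitinase, 2.24 for Btg2, 1.82 for Klf5 and 1.26 for Gabarapl1. It was negative for G0s2 (-1.95), for the dual-specificity phosphatase Dusp18 (-1.32), for D17H6S53E (-0.95) and for Mterf2, a regulator of mitochondrial transcription (-0.62).

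Otud1 held 62.7, 57.1 and 51.6 TPM at 0 h and 34.5, 88.3 and 33.7 TPM at 6 h without training, and with training 86.1 and 52.6 TPM at 0 h and 7.36, 2.17 and 1.6 TPM at 6 h. Dusp18 held 2.14, 1.98 and 1.99 TPM at 0 h and 1.58, 1.78 and 1.76 TPM at 6 h without training, and with training 2.85 and 2.49 TPM at 0 h and 6.89, 6.15 and 6.1 TPM at 6 h. D17H6S53E held 8.46, 8.44 and 7.6 TPM at 0 h and 9.58, 10.4 and 12.6 TPM at 6 h without training, and with training 7.09 and 6.23 TPM at 0 h and 17.1, 16.3 and 19.1 TPM at 6 h. The differences of Hspa1a and Otud1 were lost without trained 0 h replicate 2 (limma adjusted p = 0.0647 and 0.0965) and without trained 6 h replicate 2 (0.0513 in both), those of Dusp18 and Mterf2 without any of 8 single libraries. The difference of D17H6S53E was kept without every single library left out in turn. Groups of 3 libraries are too small for a test of single outlying libraries.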

How the results depend on the processing

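The number of genes called between 0 h and 6 h (585, with 251 higher and 334 lower) was 312 (150 higher, 162 lower) with a mean of at least 5 TPM, where fewer genes were tested, 311 (137 and 174) in a fit of the untrained 0 h and 6 h groups alone, where fewer samples entered, and 1482 (451 and 1031) with no fold threshold. Other settings gave 479 (protein-coding nuclear genes) to 681, and leaving out 1 library of the 2 groups gave 513 to 595, with 194 to 325 higher and 259 to 391 lower. With the shared library kept in trained 0 h alone, 522 were called. Sample quality weights gave 297 higher and 284 lower. The 52 differences from trained muscle became 9 with the 4 groups at 0 h and 6 h alone and 128 with sample quality weights, where the cause was not tested, and leaving out 1 library gave 11 to 285. Of the 107 named genes, 102 kept their direction and side of the threshold without the shared library, and 78 in the fit of the 2 untrained groups alone. None of the named genes reversed under the alternatives run. Among the least stable falls were those of Edem1, Usp2 and Igfbp5, with 9, 7 and 7 settings without a call.

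Each mouse was sacrificed at a single time, so the libraries were not paired by animal. The deviations of libraries with the same replicate number correlated by 0.0917, 0.0179 and 0.0217 across genes. With so few libraries, these low values cannot show that no batch was shared. With the replicate block 578 genes were called, 249 higher and 329 lower, and the difference from trained muscle was called in 46.

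With 3 libraries a group and depth unknown, low genes are the least certain. The balance of rises and falls rests on the scaling and on untrained 6 h replicate 1.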
